A study of Rattus norvegicus with 6 samples.

Results

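The miR-10, miR-99/100 and miR-125 families are 3 related groups of miRNAs. Members were taken by name, and a read was given to a member when its first 20 bases equalled the first 20 bases of the member's mature 5p sequence in RefSeq. Of the 7 members listed (miR-10a-5p, miR-10b-5p, miR-99a-5p, miR-99b-5p, miR-100-5p, miR-125a-5p and miR-125b-5p), 6 had a mature sequence and 5 had reads by this rule, out of 360 miRNAs with a read. rno-miR-99a-5p was not analysed here. Small RNA from the liver of 3 Wistar rats with nonalcoholic fatty liver disease (NAFLD) and of 3 normal Wistar rats was sequenced. NAFLD rats were fasted and then fed a high-starch diet for a week, normal rats were fed a standard diet, and livers for the NAFLD group were chosen among those with higher hepatic triglycerides. The labels give an age of 4 months for all 6 rats, whereas the methods of the study give an older age in weeks. The labels name no allele or agent. Liver tissue as a whole was used, so fewer cells of a type and less RNA per cell cannot be told apart.

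A miRNA guides Argonaute proteins to messenger RNAs, mainly by its seed, bases 2 to 8. Genes of the miR-10 family lie in Hox clusters, which pattern the body axis. The miR-99/100 family is known for targets in mTOR signalling, and the miR-125 family is the vertebrate relative of worm lin-4. Genes of both families lie in clusters with a let-7 gene between them.

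The mature sequences are shown with the seed in capitals, since the seeds define the families and the remaining bases are what tells paralogs apart in sequencing. They are from RefSeq, build GRCr8, all on the plus strand of the place named here.
rno-miR-10a-5p, chr10:81779730-81779752: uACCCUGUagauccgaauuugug
rno-miR-10b-5p, chr3:80035886-80035907: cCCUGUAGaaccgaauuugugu
rno-miR-99b-5p, chr1:67350070-67350091: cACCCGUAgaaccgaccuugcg
rno-miR-100-5p, chr8:50798307-50798328: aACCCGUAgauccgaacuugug
rno-miR-125a-5p, chr1:67350689-67350712: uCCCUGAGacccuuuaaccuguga
rno-miR-125b-5p, chr11:29732588-29732609: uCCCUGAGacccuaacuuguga
miR-99b-5p and miR-100-5p shared the seed ACCCGUA and 17 of their first 20 bases. miR-125a-5p and miR-125b-5p shared the seed CCCUGAG and 14 of their first 20 bases, compared position by position without gaps.

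In the annotation of GRCr8, Mir10a lay between Hoxb5os and Hoxb4, 1272 bases from Hoxb4. Mir10b lay inside the span of Hoxd4. Mir99b, Mirlet7e and Mir125a lay within 696 bases of each other, inside the span of Spaca6 on chromosome 1. Mir100, Mirlet7a-2 and Mir125b1 spanned 51828 bases on chromosome 8, within Mir100hgl and the lncRNA Lnc215. Mir99a, Mirlet7c1 and Mir125b2 spanned 45268 bases on chromosome 11, within the lncRNA LOC103693508.

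The libraries held 11601058 to 11880695 clean reads, and a known miRNA sequence began 76.6%, 75.5% and 78.9% of these in NAFLD 1, 2 and 3 and 86.7%, 85.6% and 91.0% in normal 1, 2 and 3. The groups did not overlap in this share, and TPM is taken over all clean reads, not over miRNA reads alone. Levels are given as TPM, reads per 1000000 clean reads of the library. The hepatocyte miRNA miR-122-5p took 444399 to 464488 TPM in NAFLD and 559995 to 594920 TPM in normal libraries. Endothelial markers (miR-126a, both arms) summed to 22.96 to 47.41 TPM in NAFLD and 14.6 to 40.9 TPM in normal libraries. Smooth muscle and stellate markers (5 of 5 detected) summed to 520 to 643 TPM in NAFLD and 334 to 575 TPM in normal libraries. Most of this sum was miR-199a-3p, at 397 to 437 TPM in NAFLD and 210 to 382 TPM in normal libraries. In the same order, miR-143-3p had 112 to 186 and 112 to 178 TPM, and miR-145-5p 6.46 to 20.1 and 10.5 to 80.0 TPM. miR-199a-5p had 0.762 to 1.72 and 0.421 to 1.26 TPM, and miR-214-3p 3.23 to 5.52 and 1.85 to 4.22 TPM. For the other cell types some listed markers had no sequence, and those with a sequence were all detected. Blood and immune markers (3 of 4 listed) summed to 5.19 to 9.90 TPM in NAFLD and 2.61 to 8.60 TPM in normal libraries. Erythroid markers (2 of 3 listed) summed to 23.9 to 65.4 TPM in NAFLD and 26.3 to 42.6 TPM in normal libraries. Biliary markers (2 of 5 listed) summed to 0.765 to 2.03 TPM in NAFLD and 1.77 to 2.95 TPM in normal libraries. The biliary sum was nearly all miR-200c-3p, since miR-141-3p had 5 reads in all. The part of these cell types in the members' levels was not tested.

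The libraries also fell into 2 sets by how often a base differed from the miRNA sequence. At position 4 of the 50 most abundant miRNAs, the median share of substituted reads was 3.45% in NAFLD 2, 3.15% in NAFLD 3 and 2.94% in normal 2, called high-substitution libraries here. It was 0.0587% in NAFLD 1, 0.0276% in normal 1 and 0.0476% in normal 3, called low-substitution libraries. The high-substitution set thus holds 2 of 3 NAFLD libraries and 1 of 3 normal libraries.

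miR-10a-5p was the most abundant member, at rank 23 of all miRNAs by mean TPM. By exact matching it had 485, 293 and 352 TPM in NAFLD 1, 2 and 3 and 415, 267 and 450 TPM in normal 1, 2 and 3. The groups overlapped, with the lowest values in NAFLD 2 and normal 2, both high-substitution libraries. The mean was 377 ± 98.6 TPM in NAFLD and 378 ± 97.0 TPM in normal libraries (SD, n = 3 each).

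miR-125b-5p came next, at rank 41, with 104, 47.96 and 55.1 TPM in NAFLD 1, 2 and 3 and 94.7, 49.4 and 126 TPM in normal 1, 2 and 3. The mature sequence is the same for both Mir125b genes, which cannot be told apart by it. miR-125a-5p, at rank 49, had 68.4, 41.1 and 35.9 TPM in NAFLD 1, 2 and 3 and 65.5, 31.2 and 74.4 TPM in normal 1, 2 and 3. In both miR-125 paralogs the 3 low-substitution libraries held the 3 highest values, whatever their group. The same held for every other measured member and for 43.7% of the 167 miRNAs with enough reads to test.

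miR-99b-5p, at rank 67, had 31.5, 15.8 and 23.4 TPM in NAFLD 1, 2 and 3 and 29.7, 16.5 and 35.9 TPM in normal 1, 2 and 3. miR-100-5p was far lower, at rank 138, with 39, 12 and 15 reads in NAFLD 1, 2 and 3 and 22, 17 and 34 reads in normal 1, 2 and 3. That is 1.02 to 3.36 TPM in NAFLD and 1.43 to 2.86 TPM in normal libraries. In each library the order of levels was miR-10a-5p, miR-125b-5p, miR-125a-5p, miR-99b-5p and miR-100-5p. Across libraries, the ranges of neighbours in this order overlapped for miR-125b-5p with miR-125a-5p and for miR-125a-5p with miR-99b-5p, while miR-10a-5p stood above and miR-100-5p below the other members' ranges.

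**Figure D1:**
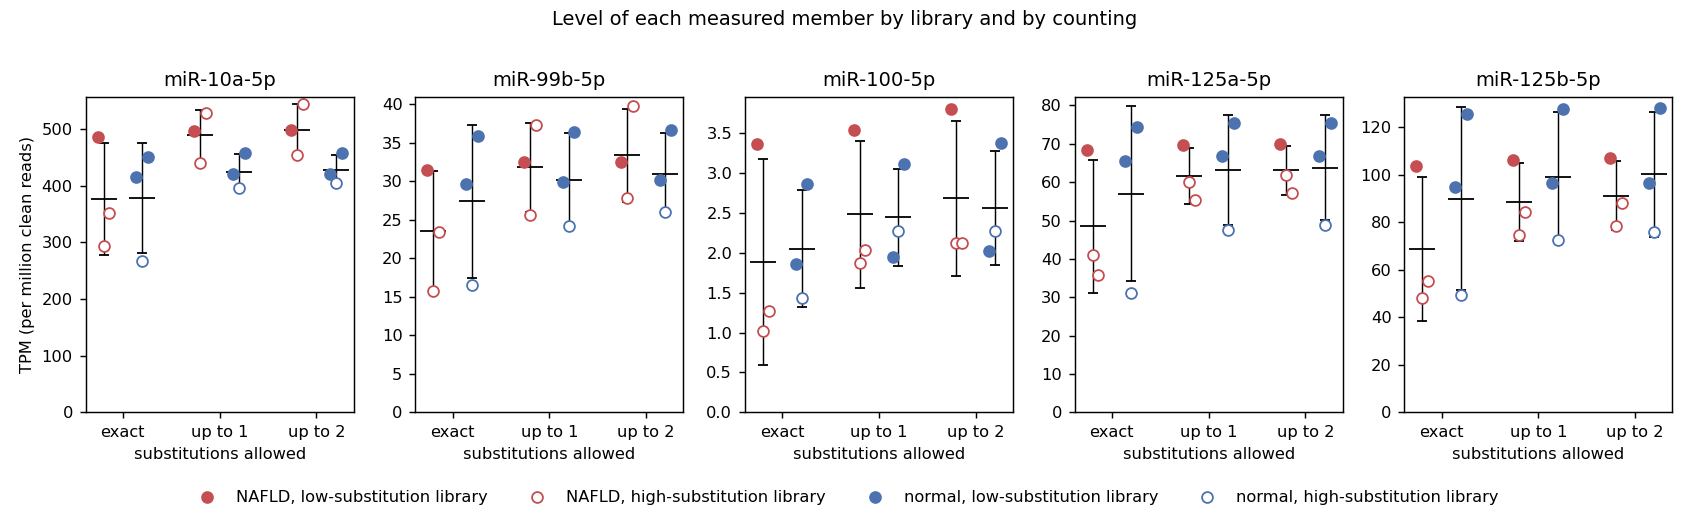
TPM of the 5 measured members (1 panel each, linear axis from 0) in 3 NAFLD (red) and 3 normal (blue) libraries, counted by exact match and with up to 1 or up to 2 substitutions in the first 20 bases. Open points are the high-substitution libraries, bars are mean ± SD. By exact match all open points lie below all filled points in every panel, and for miR-10a-5p this order is lost once 1 substitution is allowed.

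No read matched miR-10b-5p as RefSeq gives it, in any library (0 counts, which allows up to 0.253 to 0.259 TPM). Reads that begin 2 bases upstream were present, and matched the Mir10b hairpin there.
miR-10b-5p from the start used by the reads: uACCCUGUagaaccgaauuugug
That start gives the seed of miR-10a-5p, ACCCUGU, in place of CCUGUAG. A total of 49 reads began there, 7, 4 and 2 in NAFLD 1, 2 and 3 and 15, 3 and 18 in normal 1, 2 and 3. In TPM this is 0.169 to 0.603 in NAFLD and 0.253 to 1.52 in normal libraries, with the groups overlapping. It fell below the minimum count for testing. miR-10a-5p and this form differ at position 12 of the reads within the first 20 bases. There, 26681 reads had the T of miR-10a-5p, 49 the A of miR-10b-5p, 4 a C and 0 a G, so A was more frequent than either base that belongs to no paralog.

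The comparison of NAFLD with normal liver was made with edgeR's quasi-likelihood test over the 167 miRNAs with enough reads. Of these, 0.599% had an adjusted p under 0.05, which is 1 miRNA, miR-122-5p, with a log2 fold change of -0.35 ± 0.04 (SE, edgeR adjusted p = 5.59e-05). This call was lost with library size from miRNA reads (edgeR adjusted p = 0.0587), with TMM factors (edgeR adjusted p = 0.913), in DESeq2 (adjusted p = 0.985) and in the test of all tag starts (edgeR adjusted p = 0.381). At an unadjusted p under 0.05 the share was 1.80%. Of the 5 members, 0 passed at either threshold. The log2 fold changes, NAFLD over normal with SE, were -0.00 ± 0.41 for miR-10a-5p, -0.22 ± 0.44 for miR-99b-5p, -0.12 ± 0.52 for miR-100-5p, -0.24 ± 0.48 for miR-125a-5p and -0.38 ± 0.50 for miR-125b-5p. The edgeR adjusted p was 0.9928 to 0.9945 for all 5. The median log2 fold change of all 167 miRNAs was 0.003. The NAFLD libraries all lay above the normal ones for 2.40% of the miRNAs tested and all below for 1.80%, and for 0 of 5 members in either direction. The standard errors of 0.41 to 0.52 on the log2 scale leave room for changes in either direction, and no difference of a member was detected. For the same counts the standard errors were 0.23 to 0.39 with TMM factors and 0.23 to 0.47 in DESeq2, again with no member passing.

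Summed by family, the miR-10 family, which by exact match was miR-10a-5p alone, had 377 ± 98.6 TPM in NAFLD and 378 ± 97.0 TPM in normal libraries (exact permutation p = 1.0, n = 3 each). The measured miR-99/100 family had 25.4 ± 9.02 and 29.4 ± 10.6 TPM (exact permutation p = 0.7). The miR-125 family had 117 ± 47.3 and 147 ± 60.9 TPM (exact permutation p = 0.7). These tests are two-sided, and 3 libraries against 3 cannot give a p below 0.1. Adjusted over the family sums, p was 1.0 for each.

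Within a library, ratios between members do not depend on library size. The plot of ratios by library shows the 4 pairs with enough reads. miR-99b-5p had 9.36, 15.5 and 18.4 times the reads of its seed paralog miR-100-5p in NAFLD 1, 2 and 3 and 16, 11.5 and 12.6 times in normal 1, 2 and 3. The log2 ratio was 3.79 ± 0.51 in NAFLD and 3.73 ± 0.25 in normal libraries (exact permutation p = 0.9, n = 3 each). The difference, NAFLD minus normal, was -0.60 within the low-substitution set and 0.55 within the high-substitution set. miR-125a-5p had 0.660, 0.856 and 0.651 of the reads of miR-125b-5p in NAFLD 1, 2 and 3 and 0.691, 0.631 and 0.592 in normal 1, 2 and 3. NAFLD 2 stood highest, and the other 5 libraries lay between 0.592 and 0.691. The difference of log2 ratios, NAFLD minus normal, was 0.17 (exact permutation p = 0.4).

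Neighbours in a genomic cluster were compared in the same way. miR-99b-5p had 0.385 to 0.651 of the reads of miR-125a-5p, from the same 696-base cluster, in NAFLD and 0.454 to 0.530 in normal libraries (difference of log2 ratios -0.00, exact permutation p = 1.0). miR-100-5p had 0.0213 to 0.0324 of the reads of miR-125b-5p in NAFLD and 0.0196 to 0.0290 in normal libraries (difference 0.10, exact permutation p = 0.6), with a difference of 0.62 within the low-substitution set and -0.39 within the high-substitution set. Mir125b2, in another cluster, adds to the miR-125b-5p count of this pair. The ratio of miR-10a-5p to the 49 upstream-start reads of miR-10b-5p was 804 to 2082 in NAFLD and 297 to 1058 in normal libraries (difference of log2 ratios 1.27, exact permutation p = 0.3), and the difference was 1.37 within the low-substitution set, 0.34 within the high-substitution set and 0.83 without NAFLD 3. In the high-substitution NAFLD 2, NAFLD 3 and normal 2 this ratio was 860.5, 2082 and 1058. In the low-substitution NAFLD 1, normal 1 and normal 3 it was lower, at 804, 328 and 297. Over the 5 ratios, the adjusted p was 1.0 for each.

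**Figure D2:**
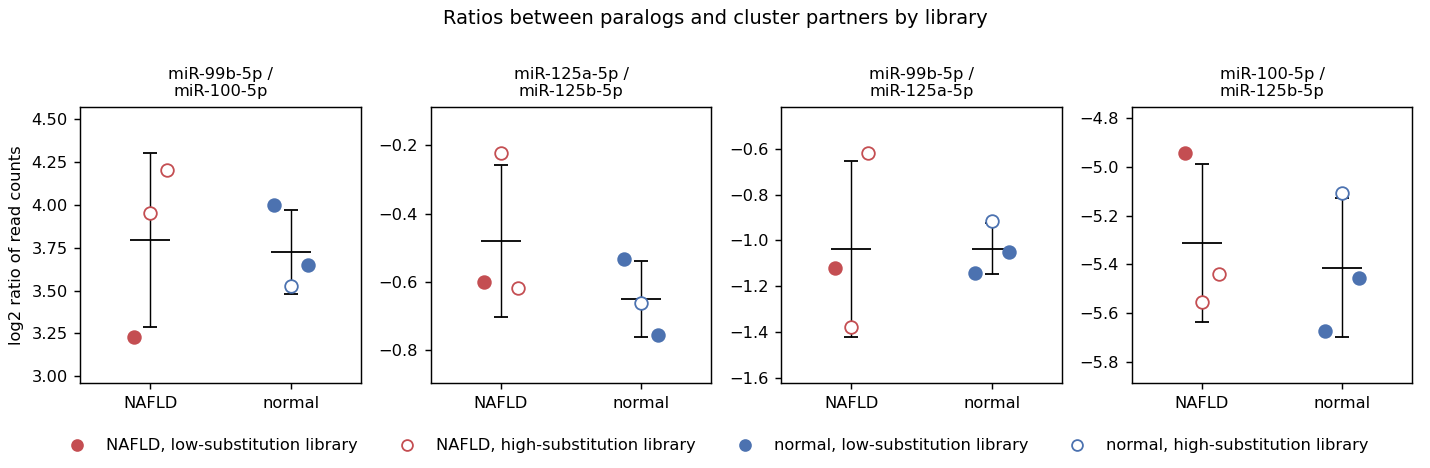
Log2 ratio of read counts for 2 pairs of paralogs and 2 pairs of cluster partners, in 3 NAFLD and 3 normal libraries; bars are mean ± SD and each panel has its own axis, which does not start at 0. The groups overlap in each panel, and open points (high-substitution libraries) are not separated from filled points.

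The let-7 miRNAs of the same clusters were much more abundant. let-7c-5p had 56218 to 64585 TPM, let-7a-5p 55180 to 63504 TPM and let-7e-5p 1367 to 2055 TPM over the 6 libraries. The miRNAs counted include let-7a-1-3p and let-7c-2-3p, from let-7a and let-7c genes other than those of these clusters. The levels of let-7a-5p and let-7c-5p therefore cannot be credited to the clusters alone. In edgeR, their log2 fold changes were 0.02 ± 0.10, 0.08 ± 0.09 and 0.33 ± 0.29 (SE), each with an edgeR adjusted p of 0.993. let-7e-5p shares a 696-base cluster with miR-99b-5p and miR-125a-5p, and was the most abundant of the 3 in every library. Of the 4 other Hox cluster miRNAs listed, miR-196b-5p had 10 reads in all, miR-196a-5p 1 read, and miR-196c-5p and miR-615 were at 0.

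By exact matching, each of the 5 measured members was higher in all 3 low-substitution libraries than in all 3 high-substitution ones, as were 43.7% of the 167 miRNAs tested. The mean level was 1.48 times as high in the low-substitution set for miR-10a-5p, 1.74 times for miR-99b-5p, 2.17 times for miR-100-5p, 1.93 times for miR-125a-5p and 2.13 times for miR-125b-5p. In an edgeR fit with group and set as terms, the set difference passed for 4 of 5 members, against 31.1% of miRNAs higher in the low-substitution set. The edgeR adjusted p was 0.00246 for miR-125b-5p, 0.00473 for miR-125a-5p, 0.0168 for miR-10a-5p, 0.0246 for miR-99b-5p and 0.0511 for miR-100-5p. The sets were defined from substituted reads of these same libraries, and exact matching leaves such reads out. A lower exact count in the high-substitution set was thus partly fixed in advance, and these p-values are a description only. The set differences, 0.64 to 1.15 on the log2 scale, were larger than the differences of these members between NAFLD and normal.

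Reads with 1 substitution were then counted for each member. For miR-10a-5p they were 33.6%, 33.3% and 32.4% of its reads with 0 or 1 substitution in NAFLD 2, NAFLD 3 and normal 2, and 2.32%, 1.19% and 1.47% in NAFLD 1, normal 1 and normal 3. The 95% Wilson intervals were 31.1% to 34.9% over the high-substitution libraries and 0.920% to 2.75% over the others, which covers counting error only. For the other 4 members the share was 31.6% to 45.5% in high-substitution libraries and 0.845% to 8.11% in low-substitution ones, with the extremes of 45.5% and 8.11% from 22 and 37 reads of miR-100-5p. Over the 113 miRNAs with at least 300 reads, the median share was 29.0% in the high-substitution set and 1.59% in the low-substitution set. In the high-substitution libraries the let-7 cluster partners had 1.77% to 3.57% and miR-122-5p had 4.04% to 4.75%. miR-100-5p, with 139 exact reads, is not among the 113.

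**Figure D3:**
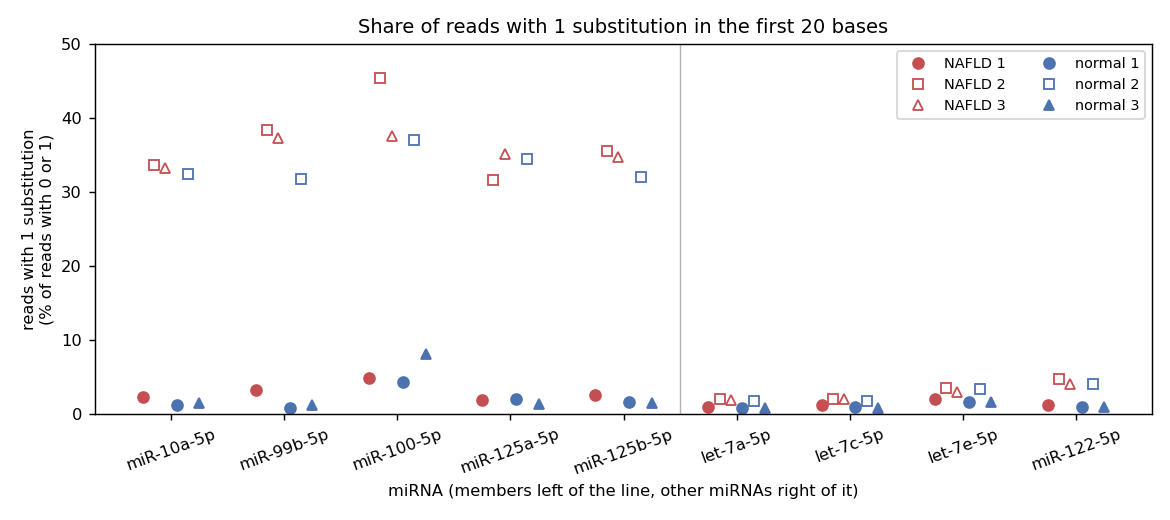
Percent of reads with 1 substitution in the first 20 bases, of reads with 0 or 1, for the 5 measured members and 4 other miRNAs in each library (colour and marker as in the key, open for high-substitution libraries). Members lie at 31.6% to 45.5% in NAFLD 2, NAFLD 3 and normal 2 and at 0.845% to 8.11% in the other libraries, while let-7 and miR-122-5p stay under 5% in all 6.

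The substitutions were of few kinds. They are named by the base of the miRNA, its position from 1 at the 5′ end and the base read. In miR-10a-5p, A16C was the most frequent, with 804, 1009 and 761 reads in NAFLD 2, NAFLD 3 and normal 2 and 0 reads in each of the other libraries. The substituted reads are shown with the changed base in capitals, since they are lost to an exact match.
miR-10a-5p, A16C: taccctgtagatccgCattt
miR-10a-5p, C4A: tacActgtagatccgaattt
miR-99b-5p, A8C: cacccgtCgaaccgaccttg
miR-125a-5p, A16C: tccctgagaccctttCacct
miR-125b-5p, A14C: tccctgagaccctCacttgt
C4A had 307, 333 and 264 reads of miR-10a-5p in the high-substitution libraries and 3, 1 and 2 in NAFLD 1, normal 1 and normal 3. Position 4 lies in the seed, and C4T and C4G of miR-10a-5p had 695 and 524 reads over the 6 libraries. A8C, the most frequent in miR-99b-5p, made up 11.2% to 17.6% of its reads in the high-substitution libraries and 0% in the others. In miR-125a-5p the most frequent was A16C, with 276 of its 277 reads in the high-substitution libraries. In miR-125b-5p it was A14C, likewise with 276 of 277 reads there. C4A was the second most frequent in miR-99b-5p, miR-125a-5p and miR-125b-5p, with 63, 127 and 216 reads.

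With up to 1 substitution allowed for all miRNAs, the set difference was smaller for every member. miR-10a-5p had 497, 441 and 528 TPM in NAFLD 1, 2 and 3 and 420, 396 and 457 TPM in normal 1, 2 and 3, and its mean was 1.01 times as high in the low-substitution set. NAFLD 3, a high-substitution library, was now the highest and NAFLD 2 lay within the range of the normal libraries. The mean in the low-substitution set was 1.13 times as high for miR-99b-5p, 1.39 times for miR-100-5p, 1.30 times for miR-125a-5p and 1.43 times for miR-125b-5p. The sets still did not overlap for 2 of 5 members, miR-125a-5p and miR-125b-5p, against 14% of the 172 miRNAs tested. The edgeR set term passed for 0 of 5 members and was higher in the low-substitution set for 5.23% of miRNAs. At an unadjusted p under 0.05 it held for 1 member, miR-125b-5p (log2 0.52 ± 0.24, edgeR adjusted p = 0.325), against 13.4% of the 172 miRNAs.

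With up to 2 substitutions, the sets did not overlap for 2 of 5 members, the same miR-125 paralogs, against 8.67% of 173 miRNAs. Their means were 1.26 and 1.37 times as high in the low-substitution set for miR-125a-5p and miR-125b-5p, and 0.982 times for miR-10a-5p. The edgeR set term passed for 0 of 5 members and 1.16% of miRNAs, with edgeR adjusted p of 0.676 to 0.979 for the members, and 0 of 5 had an unadjusted p under 0.05, against 6.94% of miRNAs.

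The NAFLD comparison moved with the counting. With up to 1 substitution, miR-10a-5p had 489 ± 44.2 TPM in NAFLD and 424 ± 30.9 TPM in normal libraries (SD, n = 3 each), a log2 fold change of 0.20 ± 0.22 (SE, edgeR adjusted p = 0.882). miR-99b-5p was at 0.08 ± 0.27, miR-100-5p at 0.02 ± 0.36, miR-125a-5p at -0.04 ± 0.27 and miR-125b-5p at -0.16 ± 0.28 on the log2 scale, with edgeR adjusted p of 0.942 to 0.995. The standard error of miR-10a-5p was 0.22 in this count and 0.41 by exact match. The median of all miRNAs tested was itself at 0.15 in this count, and miR-10a-5p lay 0.05 above and miR-125b-5p 0.31 below that median. With set as a term and exact matching, the log2 fold changes were 0.22 ± 0.19, 0.09 ± 0.26, 0.15 ± 0.42, 0.13 ± 0.23 and -0.01 ± 0.22 for miR-10a-5p, miR-99b-5p, miR-100-5p, miR-125a-5p and miR-125b-5p, with a median of 0.23 over all miRNAs and edgeR adjusted p of 0.668 to 0.975.

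Within the sets, the exact-match level of miR-10a-5p in NAFLD 1 was 1.12 times the mean of normal 1 and normal 3, and the mean of NAFLD 2 and NAFLD 3 was 1.21 times the level in normal 2. The same 2 ratios were 0.959 and 1.19 for miR-99b-5p, 1.43 and 0.80 for miR-100-5p, 0.977 and 1.23 for miR-125a-5p, and 0.940 and 1.04 for miR-125b-5p. Each rests on 1 library on 1 side, so no test was made. miR-10a-5p was higher in NAFLD in both sets. Of the other 4 members, 3 were lower in NAFLD in the low-substitution set and higher in the other. The share of all miRNAs with either pattern was not counted. In the exact-match fit with set as a term, the median log2 fold change of all miRNAs was 0.23, and miR-10a-5p differed from it by -0.02. Being higher in NAFLD within the sets was therefore not particular to miR-10a-5p.

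**Figure D4:**
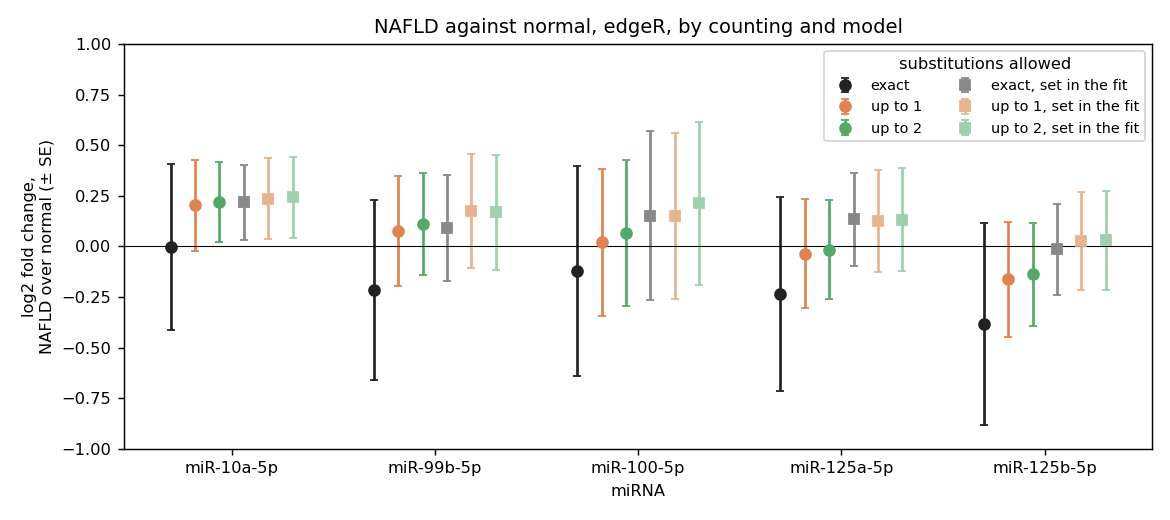
Log2 fold change of each measured member, NAFLD over normal, from edgeR (points, with SE as bars), by counting (exact, up to 1, up to 2 substitutions) and with or without the substitution set in the fit. The exact-match fits without the set have the lowest values for all 5 members, at -0.00 to -0.38, and the bars reach 0 in all 6 fits of the members other than miR-10a-5p.

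The ends of the reads, past the 20 bases used to find the members, were compared next. miR-10a-5p reads were 22 nt in 77.2% of cases, 1 base shorter than the 23 nt of RefSeq, which made up 13.7%. miR-125a-5p reads were 22 nt in 71.9%, against 24 nt in RefSeq, which made up 4.66%. miR-125b-5p reads were 22 nt in 71.9%, the length in RefSeq. miR-99b-5p was spread over 21 nt (20.5%), 22 nt (37.5%) and 23 nt (36.1%). miR-100-5p was spread in the same way, with 25.2%, 41.7% and 24.5% at 21, 22 and 23 nt.

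Of the miR-99b-5p reads of 21 nt, 367 of 369 ended within the hairpin without an added base. Frequent reads of both paralogs are shown, with a base that is not in the hairpin in capitals.
miR-99b-5p, 22 nt, 31.5% of reads: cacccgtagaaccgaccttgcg
miR-99b-5p, 23 nt, 19.9% of reads: cacccgtagaaccgaccttgcgT
miR-99b-5p, 23 nt, 14.1% of reads: cacccgtagaaccgaccttgcgA
miR-100-5p, 23 nt, 17.99% of reads: aacccgtagatccgaacttgtgA
A 3′ end that is not in the hairpin was carried by 43.8% to 52.7% of miR-99b-5p reads and 23.5% to 40% of miR-100-5p reads over the 6 libraries. The same share was 2.68% to 5.84% for miR-10a-5p, 4.90% to 7.30% for miR-125a-5p and 9.57% to 16.04% for miR-125b-5p, the last against the Mir125b1 hairpin alone. In miR-99b-5p, added A alone ended 18.5% to 25.1% of reads and added T alone 18.03% to 27.4%.

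**Figure D5:**
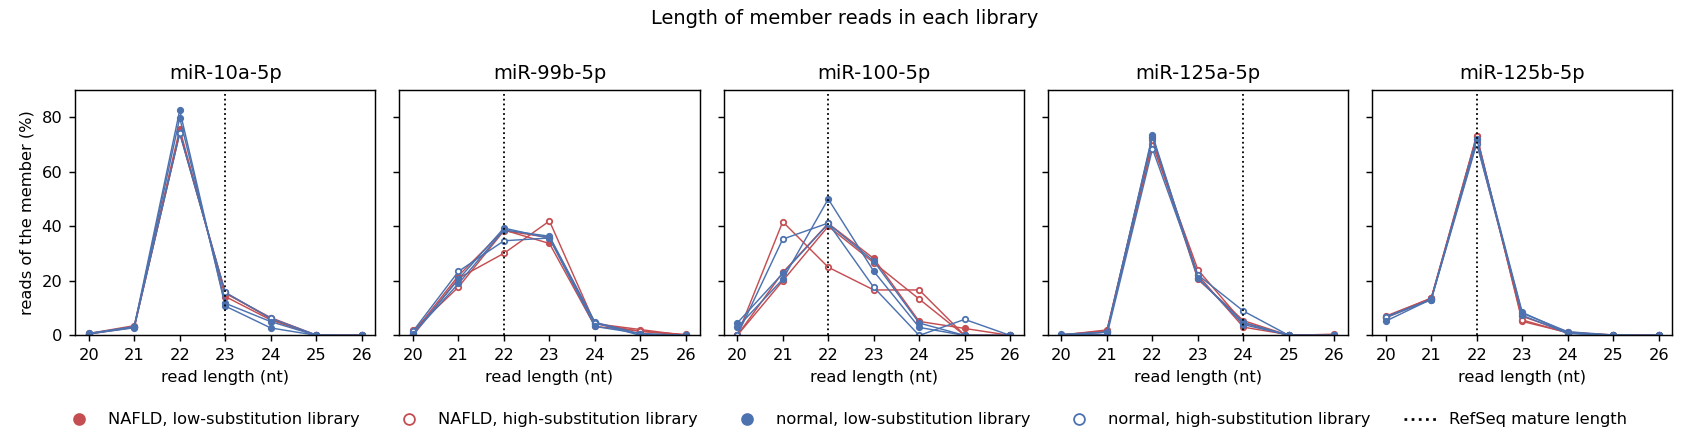
Share of each member's reads (percent) by read length (nt) in each library, with the RefSeq mature length as a dotted line; open points are high-substitution libraries. miR-10a-5p and miR-125a-5p peak at 22 nt, below their RefSeq length, and the 2 miR-99/100 paralogs are spread over 21 to 23 nt in the libraries of both groups.

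Of 30 measures of length and ends over the 5 members, 13.3% did not overlap between the groups, each with the smallest possible exact permutation p of 0.1 (two-sided, n = 3 each, adjusted p = 0.75 over the 30). These were 3 measures of miR-100-5p, taken on the same reads and so not independent, and the mean length of miR-125b-5p. Under permutation of the libraries a measure separates with that same probability of 0.1, so 13.3% is near the share from permutation alone. An added A alone ended 25.6%, 33.3% and 33.3% of miR-100-5p reads in NAFLD 1, 2 and 3 and 18.2%, 23.5% and 20.6% in normal 1, 2 and 3. These shares rest on 12 to 39 reads a library, and their 95% Wilson intervals overlap, from 13.8% to 60.9% in NAFLD 2 and from 7.31% to 38.5% in normal 1. The mean length of miR-125b-5p was 21.81 to 21.83 nt in NAFLD and 21.83 to 21.87 nt in normal libraries, a difference of -0.03 nt.

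Reads with a shifted 5′ end, which have another seed, were few. For miR-10a-5p, 1105 reads began 1 base later and 52 began 1 base earlier than RefSeq, over the 6 libraries, beside 26681 reads at the RefSeq start. The shifted share was 4.77%, 3.10% and 3.72% in NAFLD 1, 2 and 3 and 4.98%, 3.50% and 4.24% in normal 1, 2 and 3 (exact permutation p = 0.7, n = 3 each). It was lower in the 3 high-substitution libraries. The mean length of miR-10a-5p reads was higher in each of these, at a set mean of 22.24 nt against 22.17 nt. So was its share of 3′ ends not in the hairpin, at a set mean of 5.49% against 3.82%. miR-99b-5p had 8 shifted reads, miR-100-5p 6, miR-125a-5p 2 and miR-125b-5p 8.

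The 3p arms, which the rule did not use, had 0 to 205 reads each over the 6 libraries. miR-99b-3p had 142 reads in all, 14, 33 and 31 in NAFLD 1, 2 and 3 and 20, 18 and 26 in normal 1, 2 and 3, at 0.0790 of the 5p reads by the geometric mean over libraries. Its log2 fold change was 0.30 ± 0.46 (SE, edgeR adjusted p = 0.993). miR-99a-3p had 205 reads, 45, 29 and 52 in NAFLD 1, 2 and 3 and 21, 18 and 40 in normal 1, 2 and 3. Its log2 fold change was 0.69 ± 0.45 (edgeR adjusted p = 0.993), and the groups overlapped. miR-10a-3p had 36 reads, at 0.00124 of the 5p reads, miR-125a-3p 32 reads, at 0.00825, and miR-125b-2-3p 20 reads, of which 12 were in NAFLD 1. miR-125b-1-3p had 2 reads and miR-10b-3p had 0. For the 4 arms with a ratio to the 5p arm, the exact permutation p was 0.2 for miR-10a-3p, 0.6 for miR-99b-3p, 0.8 for miR-125a-3p and 0.9 for miR-125b-2-3p (n = 3 each). miR-100-3p was not counted, since its sequence is shorter than 20 bases.

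The miRNAs whose exact-match levels were most like the summed members over the 6 libraries, among 85 with a mean of at least 10 TPM, were miR-195-5p, miR-497-5p, miR-29c-3p, miR-31a-5p and miR-148a-3p. Pearson's r of log2(TPM + 1) was 0.994, 0.994, 0.981, 0.979 and 0.978, as a description only, since the libraries fall into 2 sets and all values share the same depth and matching rule. Each of these 5 was also lower in the high-substitution libraries, for example miR-195-5p at 24.1, 30.1 and 21.4 TPM in NAFLD 2, NAFLD 3 and normal 2 and at 65.5, 53.7 and 73.0 TPM in NAFLD 1, normal 1 and normal 3.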

How the data were processed

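Per the file headers and labels, the authors removed adaptors, low-quality reads and reads under 18 nt, and deposited the count of each distinct read per library, not normalized. Members and lists were chosen with earlier results of these data known. Counts were summed over reads whose first 20 bases equal those of a RefSeq mature rat miRNA (GRCr8; 645 features), and TPM is the count per 1000000 clean reads. The counts went into edgeR 4.0.16 under R 4.3.3 (quasi-likelihood test, library size equal to clean reads, filterByExpr, Benjamini-Hochberg over all miRNAs, threshold 0.05), after a test on simulated data. For SE, the size of the log2 fold change was divided by the root of edgeR's F. DESeq2 1.42.0 and limma 3.58.1 were alternatives. Ratios, sums and ends were compared by two-sided exact permutation tests (scipy 1.17.1). Named miRNAs were the members, their 3p arms, cluster partners, Hox miRNAs, cell type markers and the 5 most alike. The start of miR-10b-5p and the counts with up to 2 substitutions, alone or with the set in the fit, were added after the data were seen. A substituted read was counted only when its nearest miRNA or hairpin sequence was unique. The labels give 1 rat liver per library, and p-values measure the spread between these libraries. Pearson r between NAFLD and normal libraries of the same number was 0.18, 0.52 and -0.67, against -0.68 to 0.63 for different numbers. These r are not of whole profiles, since miR-122-5p and let-7f-5p had the most reads in every library. These values do not decide whether numbers pair rats.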

Additional observations from a re-analysis of the deposited data

How the results depend on the processing

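Of the 5 measured members, 0 had an adjusted p under 0.05 in any of the 119 fits of a member made with edgeR, DESeq2 or limma, where the smallest adjusted p was 0.623. Of 397 alternative values for 34 results, 296 kept their direction and side of the threshold, 96 turned their direction and 5 moved. Directions near 0 turned most often, and the cause of a turn was not tested. A library holds 12 to 39 exact reads of miR-100-5p and 2 to 18 upstream-start reads of miR-10b-5p, which limits every ratio with them. Matching the whole mature sequence left out the reads of miR-10a-5p and miR-125a-5p that end earlier, 22 nt reads among them.

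The count of miRNAs called was 1. It was miR-122-5p, and with TMM factors and in DESeq2 the 1 miRNA called was miR-1b, named after its values were seen. The count was 0 with library size from miRNA reads and 0 over all tag starts, 5 with up to 1 substitution and 3 with up to 2 substitutions when the substitution set was in the fit, and 1 to 2 when a library was left out (2 without NAFLD 1). With library size from miRNA reads, the median of all miRNAs was at 0.20 on the log2 scale, and 7 had an unadjusted p under 0.05, as had 1051 of 9602 tag starts. At an unadjusted p under 0.05, 13 miRNAs passed with up to 1 substitution, 18 with up to 2, 25 with the set in the fit and 3 by exact match.

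The log2 fold change of miR-10a-5p turned from -0.00 to 0.20 and 0.22 with up to 1 and 2 substitutions, 0.28 with the whole mature sequence, 0.19 with library size from miRNA reads, 5e-04 and 6e-04 in limma with a pseudocount of 1 and 0.1, and 9e-04 with the replicate block. With the set in the fit it was 0.22, and 0.24 and 0.24 with up to 1 and 2 substitutions in addition. That of miR-99b-5p turned from -0.22 to 0.0766 and 0.11 with up to 1 and 2 substitutions, and to 0.0901, 0.17 and 0.17 with the set in the fit and 0, 1 and 2 substitutions. That of miR-100-5p turned from -0.12 to 0.02 and 0.0665 with up to 1 and 2 substitutions, 0.0741 with library size from miRNA reads, and 0.15, 0.15 and 0.21 with the set in the fit. That of miR-125a-5p turned from -0.24 to 0.13, 0.12 and 0.13 with the set in the fit. With the whole mature sequence it was -0.60, where its unadjusted p of 0.0936 in edgeR was the smallest of any member fit. This whole-sequence count rests on 132 reads in all, 15 to 30 a library. The log2 fold change of miR-125b-5p turned from -0.38 to 0.0265 and 0.0298 with the set in the fit and 1 or 2 substitutions. The median of all miRNAs tested moved too, from 0.003 by exact match to 0.15 and 0.20 with up to 1 and 2 substitutions. With the set in the fit it was 0.23, 0.24 and 0.24 with 0, 1 and 2 substitutions. From the medians of the fits with substitutions or set, miR-10a-5p lay at 0.05, 0.02, -0.02, -0.01 and -0.00. The other measured members lay at -0.03 to -0.33 from them. With the whole mature sequence, miR-10a-5p lay 0.32 above the median. Leaving out a library gave -0.23 to 0.15 for miR-10a-5p, -0.48 to 0.0275 for miR-99b-5p, -0.83 to 0.19 for miR-100-5p, -0.57 to 0.0037 for miR-125a-5p and -0.80 to -0.06 for miR-125b-5p. With the replicate block the others were at -0.20, -0.22, -0.19 and -0.36, and it changed no call. The labels do not say that replicate numbers pair these rats.

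The log2 ratio of miR-99b-5p to miR-100-5p, NAFLD minus normal, was -0.60 within the low-substitution set, 0.55 within the high-substitution set and -0.14 to 0.35 when a library was left out. With the whole mature sequence, miR-125a-5p over miR-125b-5p was at -0.27, miR-99b-5p over miR-125a-5p at 0.35 and miR-100-5p over miR-125b-5p at -0.28. miR-99b-5p over miR-125a-5p was at 0.10 and 0.10 with up to 1 and 2 substitutions, and miR-100-5p over miR-125b-5p at -0.39 within the high-substitution set and 0.62 within the low-substitution set. For miR-10a-5p over miR-10b-5p the range without a library was 0.83 to 1.85. miR-99b-5p over miR-125a-5p was then at -0.21 to 0.17 and miR-100-5p over miR-125b-5p at -0.0846 to 0.25.

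The TPM difference of the miR-10 family, NAFLD minus normal, was 64.2 and 70.8 with up to 1 and 2 substitutions, 9.07 with the whole sequence, 52.6 within the low-substitution set and 55.1 within the high-substitution set. It was -55.9 to 41.2 when a library was left out. The measured miR-99/100 family was at 1.68 and 2.54 with up to 1 and 2 substitutions, 2.79 within the high-substitution set and -9.74 to 0.685 when a library was left out. The miR-125 family was at -29.6 by exact match, -12.1 and -9.77 with up to 1 and 2 substitutions, -8.17 and 9.48 within the low- and high-substitution sets and -62.8 (without normal 2) to -3.03 (without normal 3) when a library was left out. All measured members together were at 53.8 and 63.5 with up to 1 and 2 substitutions, 44.1 and 67.4 within the low- and high-substitution sets and -128 to 33.2 when a library was left out.

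For ends and arms, which were not called, the difference of the mean length of miR-10a-5p was -2e-04 nt and that of its 3′ ends outside the hairpin -0.405 percentage points within the high-substitution set, while its shifted share was 0.158 points within the low-substitution set. Within the low-substitution set, the mean length of miR-99b-5p was at -0.0349 nt, its 3′ ends at -1.41 points and those of miR-125a-5p at 0.633 points. Within the high-substitution set, the shifted share of miR-125a-5p was at 0.0 and that of miR-125b-5p at -0.0937 points. The log2 ratio of 3p to 5p was -0.62 for miR-99b and 0.65 for miR-125a within the low-substitution set and -0.0483 for miR-125b-2-3p within the high-substitution set. Leaving out a library gave -0.201 to 1.34 and -1.44 to 2.98 points for the 3′ ends of miR-10a-5p and miR-99b-5p, -0.854 to 0.346 for those of miR-125a-5p, and -0.0364 to 0.0199 nt for its mean length. It gave -0.830 to 0.00690, 0.0 to 0.126 and -0.0394 to 0.127 points for the shifted shares of miR-10a-5p, miR-125a-5p and miR-125b-5p, and log2 3p to 5p ratios of -0.056 to 1.05 for miR-99b, -0.51 to 0.21 for miR-125a and -0.15 to 1.20 for miR-125b-2-3p.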
